A study of Mus musculus with 2 samples.

Results

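The aminoacyl-tRNA synthetases are the enzymes that attach each amino acid to its own transfer RNAs, and their genes were described here in the heart of young mice. Members were the genes whose symbol names a synthetase and that have a protein-coding transcript in the annotation. The rule found 37 genes, out of 55536 annotated genes and 22028 protein-coding genes. By their known place of work, 18 of them encode enzymes of the cytosol, 17 encode enzymes of the mitochondrion, and 2 (Gars for glycine and Kars for lysine) encode both forms. The tissue was heart, taken at 14 days of age from males of the strain B6CASTF1/J, first-generation hybrids of C57BL/6J and CAST/EiJ. Total RNA was sequenced in 2 libraries, each from 300 ng of RNA, which the labels call biological replicates 1 and 2. Both libraries form 1 group, so there is no treatment, genotype or age to compare, and the comparisons below are between genes or between these libraries. The labels mention 3 males and give both libraries the same donor label, so whether the replicates came from separate animals is not known and the spread between them may be technical.

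Each synthetase recognises its amino acid and the matching transfer RNAs, joins them with energy from ATP, and hands the charged transfer RNA to the elongation factor of its compartment. Animal cells keep separate sets of these enzymes. The cytosolic set serves the ribosomes that translate nuclear messages, and the mitochondrial set, also made from nuclear genes and imported, serves the ribosomes inside mitochondria, which make core subunits of the respiratory chain. The enzymes fall into classes I and II by the fold of their catalytic domain. Several cytosolic enzymes are held together in the multisynthetase complex by the scaffold proteins Aimp1, Aimp2 and Eef1e1. The heart depends on oxidative metabolism, and inherited defects of mitochondrial synthetases such as Aars2 are a known cause of human infantile cardiomyopathy.

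Depth was 39334380 expected counts in replicate 1 and 46391250 in replicate 2. The tissue label was checked against marker genes: the median of 5 cardiomyocyte markers was 7149.9 and 7049 TPM (a level corrected for transcript length and library depth), and 4 of 4 skeletal muscle markers stayed below 1 TPM in both libraries. The libraries differed in other markers. Summed over 4 atrial markers the level was 1585 TPM in replicate 1 and 492 TPM in replicate 2. Summed over 5 T cell markers it was 1.07 TPM in replicate 1 and 24.4 TPM in replicate 2, and over 4 thymus markers it was 0.05 TPM in replicate 1, with Rag2 and Ptcra at 0 counts, and 20.04 TPM in replicate 2. In whole tissue, fewer cells of a type and less RNA per cell cannot be told apart.

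Transcripts of every synthetase were found. Detection was set at a level of 1 TPM reached in each library, and 37 of 37 members passed, where 51.8% of all protein-coding genes did. The member with the fewest counts, Pars2, had 118 and 132. The median level over the 37 genes was 13.5 TPM in replicate 1 and 14.1 TPM in replicate 2 (mean 13.8 ± 0.44, SD, n = 2), and the median of the other 11384 detected protein-coding genes was 9.82 ± 0.16 TPM. Together the synthetases took 0.0636% of all TPM in replicate 1 and 0.0590% in replicate 2. Levels were close across the enzyme classes: the median was 13.2 ± 0.31 TPM over the 18 genes of class I and 14.0 ± 0.28 TPM over the 18 genes of class II, with Eprs, which carries a domain of each class, counted in neither.

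**Figure D1:**
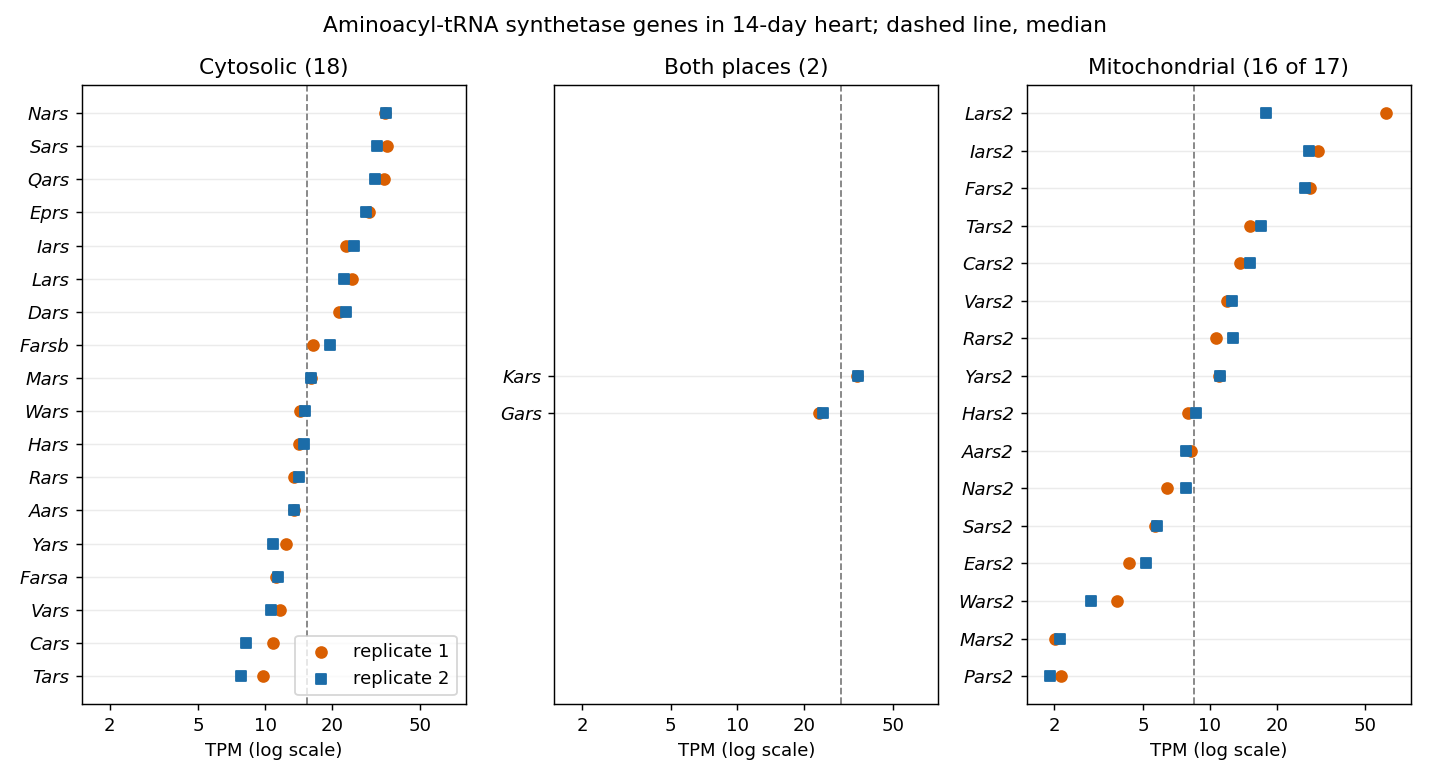
TPM (log scale) of synthetase genes in replicate 1 (circles) and replicate 2 (squares), in panels for the 18 cytosolic genes, the 2 genes that serve both places and 16 of the 17 mitochondrial genes. The dashed line is the mean over both libraries of the whole group's median: 15.4, 29.3 and 8.47 TPM. The mitochondrial genes cover a wider range, and Lars2 is the gene whose points lie far apart.

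The cytosolic synthetases were higher as a set and closer together than the mitochondrial ones. Their median was 15.2 and 15.6 TPM in replicates 1 and 2 (mean 15.4 ± 0.30, SD, n = 2), and that of the mitochondrial genes was 8.27 and 8.67 TPM (mean 8.47 ± 0.28, SD, n = 2). Cytosolic means ran from 8.75 TPM for Tars to 34.8 TPM for Nars, a 3.98-fold range. Mitochondrial means ran from 2.02 TPM for Pars2 to 40.1 TPM for Lars2, a 19.8-fold range, or 14.5-fold without Lars2. The SD of log2 TPM between genes was 0.64 among the cytosolic genes, 1.24 among the mitochondrial genes (1.14 without Lars2) and 1.87 among the other detected protein-coding genes. The summed level was 347 and 340 TPM for the cytosolic genes, and 232 and 191 TPM for the mitochondrial genes. Without Lars2 the mitochondrial sum was 169 and 173 TPM. These values count all transcripts of a gene. Over protein-coding transcripts alone the cytosolic range was wider, from a mean of 4.175 TPM for Cars to 33.4 TPM for Sars. Among the mitochondrial genes Pars2 then had 1.87 TPM and Iars2 28.9 TPM.

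With all transcripts of a gene counted, the highest cytosolic genes were those for asparagine, serine, glutamine and the pair glutamate and proline. Nars, the asparagine enzyme, had 34.6 TPM in replicate 1 and 35.0 TPM in replicate 2. Sars, the serine enzyme, had 35.3 and 31.9 TPM, and Qars, which charges glutamine, had 34.3 and 31.1 TPM. Eprs, a fused protein that charges both glutamate and proline transfer RNAs, had 29.2 and 28.4 TPM. Nars and Sars were above Qars in both libraries and Eprs was below the other 3, while Nars and Sars changed order between the libraries. This order depended on the measure. In the kallisto-style table Qars was above Nars, Sars and Eprs, with 45.8 and 43.6 TPM against 38.9 and 38.3 TPM for Nars. Over protein-coding transcripts alone Qars had 11.8 and 9.21 TPM and Nars 19.75 and 19.4 TPM, both below the 24.9 and 24.7 TPM of Eprs.

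At the other end of the cytosolic set stood the enzymes for threonine, cysteine, valine, phenylalanine and tyrosine. Tars, for threonine, had 9.75 and 7.75 TPM, not counting Tarsl2, another cytosolic threonine enzyme that the rule does not include. Cars, for cysteine, had 10.8 and 8.20 TPM. Vars, for valine, had 11.7 and 10.7 TPM, and Yars, for tyrosine, had 12.5 and 10.9 TPM. Phenylalanine is charged in the cytosol by an enzyme of 2 kinds of subunit, and the gene of the alpha subunit, Farsa, had 11.3 and 11.4 TPM while that of the beta subunit, Farsb, had 16.4 and 19.5 TPM. Farsb was thus higher than Farsa in both libraries. Aars for alanine, Rars for arginine, Hars for histidine, Wars for tryptophan and Mars for methionine lay between 13.4 and 16.1 TPM in each library.

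Genes of the multisynthetase complex were higher than the rest of the cytosolic set. The 8 enzymes of the complex (Eprs, Iars, Lars, Mars, Qars, Rars, Dars and Kars) had a median of 23.8 and 24.1 TPM (mean 24.0 ± 0.17), and the 12 cytosolic or shared enzymes outside it had a median of 13.8 and 14.2 TPM (mean 14.0 ± 0.28). The sets overlapped: Rars and Mars of the complex averaged 13.8 and 16.04 TPM, while Nars and Sars outside it averaged 34.8 and 33.6 TPM. Kars and Gars, each a gene that supplies the cytosol and the mitochondrion, were among the higher members, with 34.7 and 35.0 TPM for Kars and 23.3 and 24.3 TPM for Gars. The scaffold genes of the complex had a median of 14.3 ± 0.45 TPM: Aimp1 had 18.5 and 16.99 TPM, Aimp2 had 14.0 and 14.6 TPM, and Eef1e1 had 3.14 and 4.32 TPM.

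With all transcripts counted, the mitochondrial genes with the highest levels were those for leucine, isoleucine and phenylalanine. Lars2, for leucine, had 62.3 TPM in replicate 1 and 17.9 TPM in replicate 2, and is described further on. Over protein-coding transcripts alone it had 10.8 and 13.6 TPM and ranked 4th of the 17 mitochondrial genes in both libraries. Iars2, for isoleucine, had 30.5 and 28.0 TPM, and Fars2, which charges phenylalanine as a single chain, had 28.3 and 26.9 TPM. In replicate 2 both were above Lars2 in this table, but below it in the kallisto-style table (30.03 TPM for Iars2 and 32.7 TPM for Fars2, against 64.0 TPM for Lars2). In both libraries they were above the other 14 mitochondrial genes. Tars2, for threonine, followed with 15.2 and 17.1 TPM, and Cars2, for cysteine, with 13.7 and 15.2 TPM.

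The lowest were the mitochondrial enzymes for proline, methionine and tryptophan. Pars2 had 2.13 and 1.91 TPM, Mars2 had 2.01 and 2.12 TPM, and Wars2 had 3.82 and 2.93 TPM. Pars2 and Mars2 could not be ordered, since each was lower in 1 library. Mars2 illustrates what the length correction does: it had 689 and 869 expected counts, more than the 307 and 376 of Sars2, for serine, although its TPM was lower than the 5.68 and 5.80 TPM of Sars2. Ears2, for glutamate, had 4.35 and 5.17 TPM. Mitochondria of mammals have no enzyme of their own for glutamine: Ears2 is thought to load glutamate onto that transfer RNA, and an amidotransferase converts it. The genes of the amidotransferase were all above Ears2 in both libraries, with 12.2 and 12.9 TPM for Qrsl1, 12.5 and 12.6 TPM for Gatb, and 6.10 and 6.55 TPM for Gatc.

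Within each amino acid, the cytosolic gene was compared with the mitochondrial one as the log2 ratio of TPM, with 0.1 added to each, in each library. The 17 mitochondrial enzymes gave 18 pairs, since Fars2 has both Farsa and Farsb as partners. The cytosolic gene was higher in both libraries in 10 pairs, the mitochondrial gene in 6, and the libraries differed in sign in 2. A ratio of 1 log2 unit (2-fold) or more in both libraries was reached by 7 pairs with the cytosolic gene higher and by 1 with the mitochondrial gene higher. The last count was 2 in the kallisto-style table and 3 over protein-coding transcripts alone, and 0 in counts not divided by length. With 2 libraries no exact permutation test can pass 0.05, so these ratios are given with their spread and without a p-value.

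The wide ratios belonged to the low mitochondrial genes. Eprs was 13.6-fold above Pars2 (log2 3.72 and 3.82, mean 3.77 ± 0.077, SD, n = 2) and 5.97-fold above Ears2 (log2 2.72 and 2.43, mean 2.58 ± 0.20). Mars, at 16.01 and 16.07 TPM, was 7.46-fold above Mars2 (mean log2 2.90 ± 0.048), but only 0.64 log2 above it in counts not divided by length. Sars was above Sars2 by 2.61 and 2.44 log2, Nars was above Nars2 (6.43 and 7.78 TPM) by 2.41 and 2.16 log2, and Wars was above Wars2 by 1.88 and 2.32 log2. Smaller ratios of the same direction were found for histidine, alanine and arginine. The mean log2 ratio was 0.81 ± 0.039 for Hars over Hars2, 0.73 ± 0.059 for Aars over Aars2 and 0.24 ± 0.13 for Rars over Rars2.

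The reverse order was found for phenylalanine, threonine, cysteine, isoleucine and valine. Farsa was lower than Fars2 by more than 2-fold in both libraries (log2 -1.32 and -1.23, mean -1.28 ± 0.065; mean -0.89 in counts not divided by length), and Farsb was lower than Fars2 by less (log2 -0.78 and -0.46). Tars was lower than Tars2 (log2 -0.63 and -1.13), Cars was lower than Cars2 (log2 -0.34 and -0.88), and Iars, at 23.2 and 25.0 TPM, was slightly lower than Iars2 (log2 -0.40 and -0.16). The threonine ratio is for Tars alone and leaves out Tarsl2, which had 11.3 and 10.97 TPM. Vars and Vars2 were nearly level (log2 -0.03 and -0.24), as were Yars and Yars2, which changed sign between the libraries (log2 0.18 and -0.03). The size of the threonine and cysteine ratios depended on the table. The mean log2 ratio of Tars over Tars2 was -0.88, but -0.28 in the kallisto-style table and -1.36 over protein-coding transcripts alone. That of Cars over Cars2 was -0.61, -0.097 in the kallisto-style table and -1.35 over protein-coding transcripts alone. In the valine pair the order depended on what is counted: over protein-coding transcripts alone Vars was 1.11 log2 above Vars2.

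For leucine the sign differed between the libraries. Lars had 24.5 TPM in replicate 1 and 22.8 TPM in replicate 2, so that the log2 ratio of Lars over Lars2 was -1.34 in replicate 1 and 0.34 in replicate 2.

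**Figure D2:**
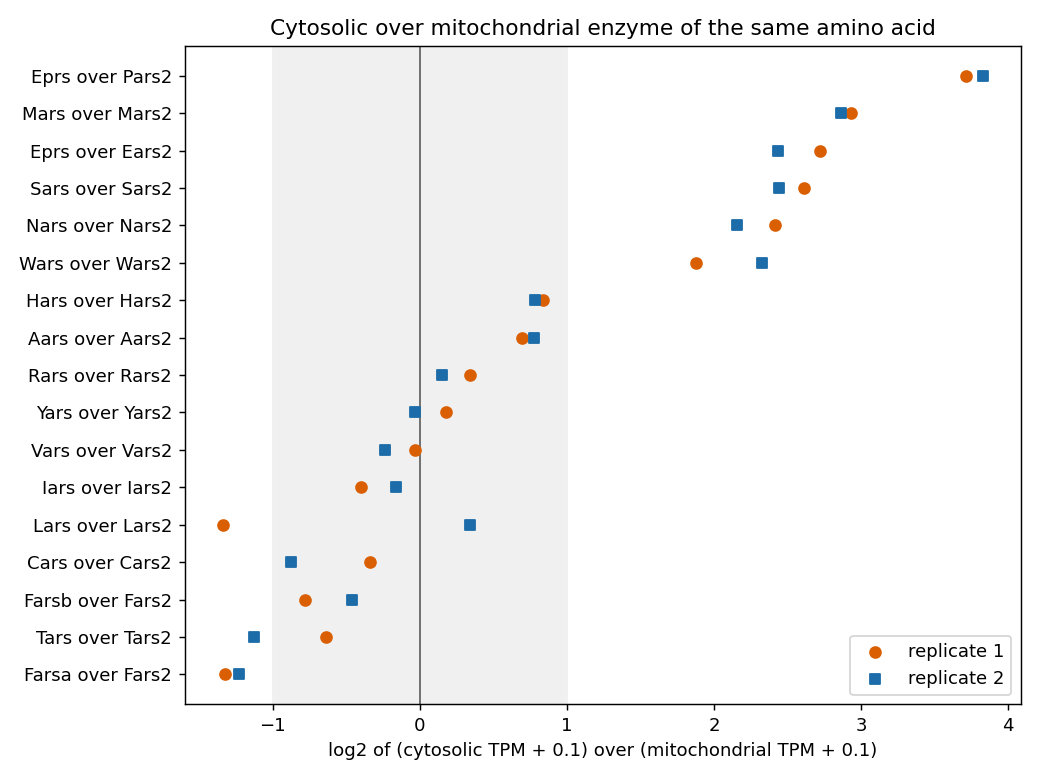
Log2 ratio of the cytosolic over the mitochondrial gene of the same amino acid for 17 of the 18 pairs in replicate 1 (circles) and replicate 2 (squares), from TPM with 0.1 added. Points right of 0 have the cytosolic gene higher, the grey band marks ratios under 2-fold, and the pair of Lars and Lars2 has its libraries on opposite sides of 0, at -1.34 and 0.34.

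To see which members differed between the libraries, the counts of replicate 1 and replicate 2 were compared by a 2-sided exact binomial test, with p-values adjusted by the Benjamini-Hochberg method over the 16611 genes tested. A gene was called at an adjusted p under 0.05 and a ratio of at least 2-fold. The test compares these libraries and covers counting error only, so it says nothing of a condition. Of the 37 members 1 was called, Lars2, beside a background of 3.2% of all genes tested in either direction and 0.753% higher in replicate 1. At any ratio, 5 members passed the adjusted p (Lars2, Iars2, Sars and Qars higher and Tars2 lower in replicate 1), beside 22.1% of all genes. The synthetases other than Lars2 lay close between the libraries: their median absolute log2 ratio was 0.061, against 0.14 over all genes tested and 0.097 over the 11047 genes whose counts in both libraries reached 118, the lowest of any member. Of these 11047 genes 0.389% were called. Of the members other than Lars2 the farthest was Ears2, with 304 counts in replicate 1 and 430 in replicate 2 (log2 ratio -0.21, 95% interval -0.43 to 7.7e-05).

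**Figure D3:**
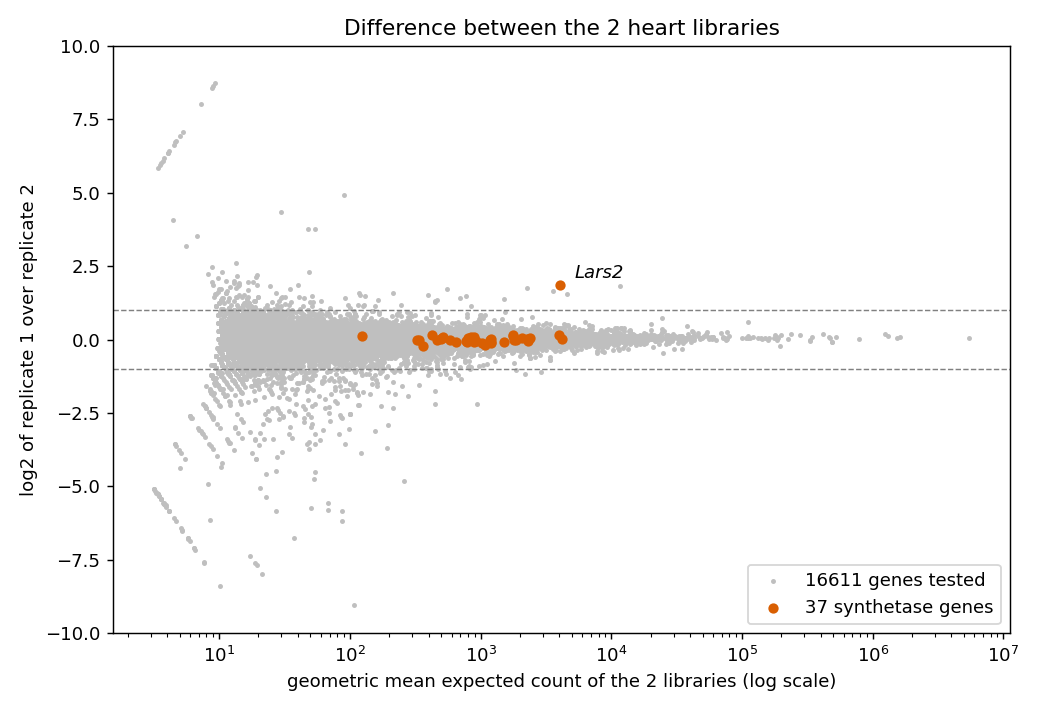
Log2 ratio of replicate 1 over replicate 2 against the geometric mean count (log scale, counts under 0.5 drawn at 0.5) for the 16611 genes tested (grey) and the 37 synthetase genes (orange). Dashed lines mark 2-fold; Lars2, at a log2 ratio of 1.84, is the member outside them.

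Lars2 had 6991 expected counts in replicate 1 and 2372 in replicate 2. It was 3.59-fold higher in replicate 1 after scaling for depth (log2 1.84, 95% interval of the fold 3.43 to 3.76, adjusted p = 9.23e-298 by the exact binomial test, the smallest value the procedure reports). Among the 7401 genes with at least 1000 counts over both libraries, 0 had a higher ratio of replicate 1 over replicate 2, and 4 had a larger ratio in either direction. Lars2 was the highest of the 37 members in replicate 1 and the 13th in replicate 2. In the kallisto-style table it was the highest in both libraries, and over protein-coding transcripts alone it was the 19th in replicate 1 and the 16th in replicate 2. It made up 26.9% of the mitochondrial synthetase TPM in replicate 1 and 9.39% in replicate 2, against 56.3% and 24.3% in the kallisto-style table. Atrial markers were also higher in replicate 1 (summed 1585 and 492 TPM), with 4 of 4 called. T cell markers (1.07 and 24.4 TPM, 5 of 5 called) and thymus markers (0.05 and 20.04 TPM, 3 of 3 tested called) were lower there. Their part in the Lars2 difference was not tested.

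In the RSEM-style table, which gave the levels above, the Lars2 difference lay in 1 of its 9 annotated transcripts. Lars2, on chromosome 9 at 123366927 to 123462666 (mm10, plus strand), has the full-length coding transcript Lars2-201 of 3894 bases and, among others, Lars2-209 of 3756 bases, which the annotation assigns to nonsense-mediated decay, the pathway that degrades messages with an early stop. Lars2-209 had 51.1 TPM in replicate 1, with a credibility interval in the deposited table of 46.8 to 52.8, and 3.70 TPM in replicate 2, with an interval of 1.01 to 5.85. Lars2-201 had 10.7 TPM in replicate 1 (8.11 to 13.4) and 13.1 TPM in replicate 2 (10.6 to 15.3), so its intervals overlapped while those of Lars2-209 lay far apart. Lars2-209 therefore held 82.1% of the gene's TPM in replicate 1 and 20.6% in replicate 2, and Lars2-201 held 17.3% and 73.1%.

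The same direction was found in the kallisto-style table, which covers the same libraries and so is not an independent measurement. There Lars2-209 had 14319.8 estimated counts in replicate 1 and 1567 in replicate 2, an 11.1-fold difference (log2 3.48, 95% interval 3.40 to 3.56, adjusted p = 1.2e-297 by the exact binomial test over 46896 transcripts, again the smallest value reported). In the RSEM-style table it was 14.0-fold (log2 3.81), from 5722 and 496 expected counts. Lars2-201 had 1604 and 2309 estimated counts in the kallisto-style table, a log2 ratio of -0.24, and -0.26 in the RSEM-style table, short of 2-fold in both. The tables disagreed on a retained-intron transcript, Lars2-205: it had 93.4 and 30.2 TPM in the kallisto-style table, where its 1598 and 604 estimated counts were also called (3.23-fold), and 0 TPM in both libraries of the RSEM-style table. They also disagreed on the level of the gene, which was 246 and 64.0 TPM in the kallisto-style table. Over the 37 members the kallisto-style mean was a median of 1.15 times the RSEM-style one, the highest ratio after Lars2 was 1.83 for Farsb, and that of Lars2 was 3.87. Over protein-coding transcripts alone Lars2 had 10.8 TPM in replicate 1 and 13.6 TPM in replicate 2, 7.63% and 9.18% of the mitochondrial sum. On the same count Lars averaged 12.1 TPM and Lars2 12.2 TPM.

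**Figure D4:**
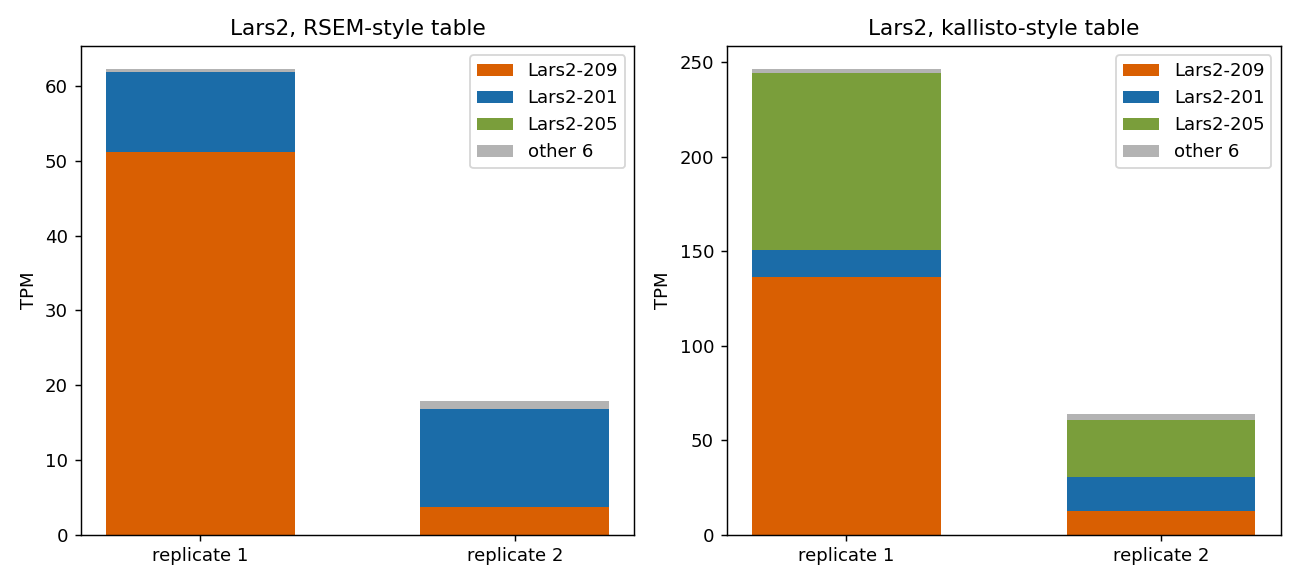
TPM of Lars2 transcripts in each library, stacked from 0, in the RSEM-style table (left) and the kallisto-style table (right, with its own axis). The bar of Lars2-209 is 51.1 TPM in replicate 1 and 3.70 TPM in replicate 2 on the left, and Lars2-205 is 0 on the left and 93.4 and 30.2 TPM on the right.

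Little sequence separates Lars2-209 from Lars2-201. The stretch where they part is shown, since most of the bases that tell the transcripts apart lie in it. Both have 21 exons. Exon 11 ends at base 123432005 in Lars2-209 and at 123432001 in Lars2-201, and exon 12 starts at 123436234 in Lars2-209 and at 123436117 in Lars2-201. Lars2-209 thus has 4 bases that Lars2-201 lacks, and lacks 117 that Lars2-201 has, written in capitals between 30 shared bases on each side, from the GENCODE M21 transcripts:
Lars2-209: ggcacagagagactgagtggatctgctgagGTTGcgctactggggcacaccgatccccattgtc
Lars2-201: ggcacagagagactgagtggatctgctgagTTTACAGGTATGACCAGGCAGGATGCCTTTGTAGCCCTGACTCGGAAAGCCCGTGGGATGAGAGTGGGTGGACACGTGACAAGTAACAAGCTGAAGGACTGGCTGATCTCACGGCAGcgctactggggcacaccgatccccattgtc
The net loss of 113 bases is not a multiple of 3 and shifts the reading frame. The annotated coding part is 1485 bases in Lars2-209 and 2706 in Lars2-201, and 8 exons follow the one with the early stop.

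Outside this junction the transcripts differ at their ends. Lars2-209 starts at base 123366954 and Lars2-201 at 123366927. Of the 3726 runs of 31 bases in Lars2-209, 99.1% also occur in Lars2-201. The other 35 lie at the junction (33) and at the last bases (2), since Lars2-209 ends at base 123462666 and Lars2-201 at 123462664. In the other direction, 173 runs of Lars2-201 do not occur in Lars2-209. The last exon of Lars2-201, from 123461499 to 123462664, is mostly 3' UTR, because coding ends at 123461675. In it, bases 123461942 to 123462083 hold 26 runs of 31 bases that also occur in AA474408, and bases 123462048 to 123462099 hold 22 that occur in Gm15564, an antisense gene. Both genes were chosen for mention after their values were seen. AA474408 had 4316 estimated counts in replicate 1 and 1304 in replicate 2 in the kallisto-style table (4.04-fold), but 19 expected counts in replicate 1 and 27 in replicate 2 in the RSEM-style table. Gm15564 had at most 4 counts in any library of either table. The part of the shared sequence in the Lars2 difference was not tested.

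Transcripts of the members, those of Lars2 included, were called at about the rate of all transcripts. By the same test and 2-fold rule on the RSEM-style table, 22 of 142 member transcripts were called (12 higher and 10 lower in replicate 1), beside 16.2% of all transcripts in either direction and 6.8% higher in replicate 1. By the kallisto-style counts 20 of 145 were called (11 higher and 9 lower), beside 16% in either direction and 6.97% higher. Without the transcripts of Lars2, 21 of 139 were called in the RSEM-style table and 18 of 139 in the kallisto-style table. Only 3 higher and 2 lower transcripts were called in both tables. They include Tars-202, a retained-intron transcript with 35.4 and 12.3 expected counts in replicates 1 and 2 and 37.3 and 3.75 estimated counts in the kallisto-style table. The same held for Cars-206 (retained intron, 29.8 and 16.01 expected counts, higher in replicate 1). Cars2-205, assigned to decay, was at 0 in replicate 1 and had 33.8 expected counts in replicate 2. Lars2-209 had by far the most counts of them.

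The share of each gene's TPM in protein-coding transcripts varied widely among the synthetases. The annotation lists 299 transcripts for the 37 genes, a median of 7 each, of which many retain introns or are marked for decay. For members the share was the mean of the shares in each library. For other genes it was taken from TPM averaged over the libraries, so the measures are not quite alike. The protein-coding share had a median of 86.2% over the members and 92.1% over 11366 other detected genes. It was 90% or more in 14 members and under 50% in 5, or 13.5% of members beside 7.67% of the other genes. Among these, Qars had 34.5% and 29.6%, Vars2 had 32.7% and 31.9%, Cars had 37.5% and 52.4%, and Lars2 had 17.4% and 75.9%.

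These shares are estimates, and the tables did not always give the same ones. Qars (27.8% and 24.3%) and Vars2 (42.2% and 41.2%) stayed under 50% in the kallisto-style table, and Lars2 had 6.63% and 32.2% there. Nars, Wars2 and Lars had higher shares there than in the RSEM-style table, and Rars, Nars2 and Tars had lower ones. Rars is an example, with 93.2% and 96.3% in the RSEM-style table and 58.3% and 64.9% in the kallisto-style table. The most abundant transcript was protein-coding for 33 members in the RSEM-style table and for 34 in the kallisto-style table, and it was the same transcript in both tables for 30. At the full end of the range, Sars, Kars, Hars, Dars and Iars2 had 98.2% to 100% in protein-coding transcripts in each library of the RSEM-style table. Mars2 has 1 annotated transcript.

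**Figure D5:**
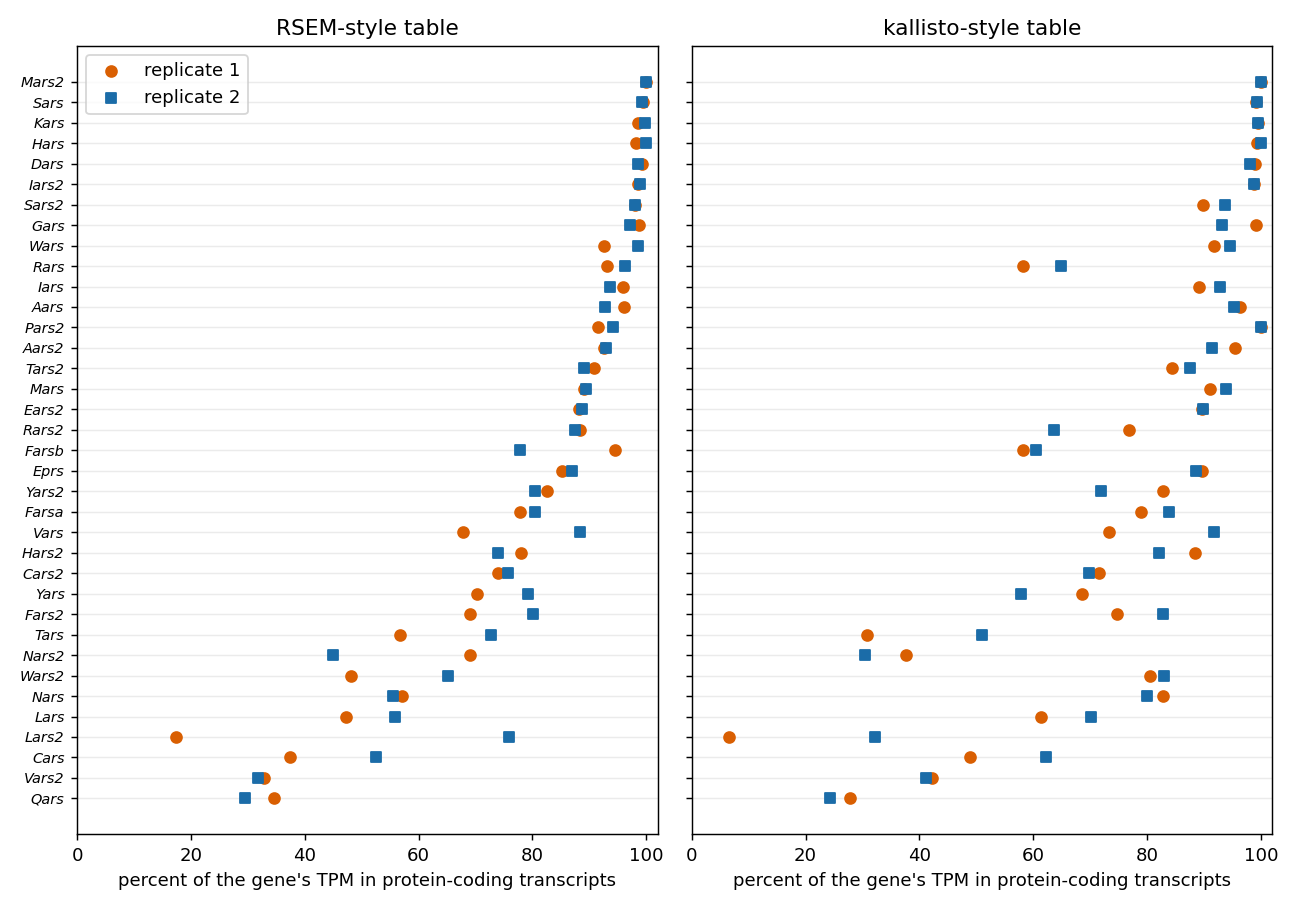
Percent of TPM in protein-coding transcripts for 36 of the members, in replicate 1 (circles) and replicate 2 (squares), in the RSEM-style table (left) and the kallisto-style table (right), ordered by the RSEM-style mean. Qars and Vars2 lie under 50% in both libraries of both tables, and Lars2 is the member with the widest gap between libraries on the left, at 17.4% and 75.9%.

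The letters of one regulatory element occurred in some cytosolic promoters and in 0 of the mitochondrial promoters searched. RefSeq promoters (GRCm38.p6, 250 bases before to 50 after the start) matched 27 of the 37 genes, 13 cytosolic or shared and 14 mitochondrial. The 8 letters TGATGNAA, which with C for N are the core of the element bound by Atf4 with C/EBP partners, were searched on both strands. They occurred in 5 of the 13 cytosolic or shared promoters (Aars, Gars, Iars, Tars and Yars), in 0 of the 14 mitochondrial ones and in 3.97% of 16496 other protein-coding genes. Atf4 is the transcription factor of the integrated stress response, known to raise synthetase genes when amino acids run short. Beside 3.97% of other genes, 0 of 14 does not set the mitochondrial promoters apart from them. A match of letters is a description and not evidence of binding. The stretches of 4 of these genes are printed 5' to 3' on the strand of the gene, with the match, on either strand, in capitals:
Gars: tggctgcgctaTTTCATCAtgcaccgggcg
Iars: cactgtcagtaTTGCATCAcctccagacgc
Tars: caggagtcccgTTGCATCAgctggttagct
Yars: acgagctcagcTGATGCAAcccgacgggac
The Gars stretch is chr6:55037960-55037989, plus strand, with its match starting 30 bases before the gene's start, and that of Tars is chr15:11399655-11399684, minus strand, 15 bases before it. The matches of Iars (stretch chr13:49682126-49682155, plus strand) and Yars (stretch chr4:129189895-129189924, plus strand) begin 7 and 3 bases after the start. The stretches of Iars, Tars and Yars read TGATGCAA on one strand, and that of Gars reads TGATGAAA.

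GCGCATGC, the core of the site of the factor Nrf1, a regulator of nuclear genes for mitochondria, occurred in 0 of the 13 cytosolic or shared promoters, in 3 of the 14 mitochondrial ones (Wars2, Rars2 and Vars2) and in 4.10% of other genes. CCAAT occurred in 7 of 13 and 6 of 14, and in 42.1% of other genes. Lars2 held none of these letters in its window. By RSEM-style TPM the genes that carry TGATGNAA were not the abundant ones as a rule. Tars was the lowest cytosolic gene on that measure, but had 17.6 and 11.6 TPM in the kallisto-style table. Yars had 12.5 and 10.9 TPM and Aars 13.4 and 13.5 TPM, while Gars and Iars were above 23 TPM in both libraries.

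A start within 1000 bases of another protein-coding gene's start on the opposite strand, whether or not the genes overlap, was found for 10 of the 37 members. The same held for 10.8% of all protein-coding genes. The genes of the histidine enzymes overlap at their starts on chromosome 18. Hars2 starts at base 36783008 on the plus strand, and Hars starts 197 bases away, at 36783205 on the minus strand. Hars had 14.3 and 15.0 TPM while Hars2 had 7.94 and 8.67 TPM. The start of Sars2 lies 172 bases from that of Mrps12, a protein of the mitochondrial ribosome. Sars2 had 5.68 and 5.80 TPM while Mrps12 had 21.6 and 22.9 TPM. Fars2, at 28.3 and 26.9 TPM, has as such a neighbour Lyrm4, an iron-sulfur cluster assembly factor, at 3.49 and 3.27 TPM. These neighbours were named after their values were seen.

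Genes that act beside the synthetases gave the scale of their levels. Mitochondrial translation factors had a median of 18.3 ± 0.41 TPM over 10 genes, with the elongation factors Tufm, which receives charged transfer RNAs (129.5 and 127 TPM), and Gfm1 (90.3 and 87.9 TPM) highest and the release factor Mtrf1 (2.47 and 2.17 TPM) lowest. Proteins of the mitochondrial ribosome had a median of 30.4 ± 1.24 TPM, with 77 of 78 detected. Enzymes that process or modify mitochondrial transfer RNAs had a median of 7.05 ± 0.88 TPM over 15 genes, close to the 8.47 TPM of the mitochondrial synthetases, with Hsd17b10, a subunit of mitochondrial RNase P, highest (70.0 and 66.9 TPM). The 6 cytosolic elongation factors had a median of 277 ± 19.9 TPM, led by Eef1a1 (953 and 938 TPM), and cytosolic ribosomal proteins had a median of 214 ± 6.63 TPM, with 78 of 80 detected. Cytosolic transfer RNA processing genes had a median of 8.02 ± 0.66 TPM over 12 genes.

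Genes of the integrated stress response, several of which Atf4 is known to activate together with synthetases, had a median of 2.60 ± 0.081 TPM, with 15 of 18 detected. Ddit4, an inhibitor of mTORC1, was highest with 70.2 and 77.25 TPM, Eif4ebp1, a translation repressor, had 51.95 and 39.8 TPM, and the mRNA of Atf4 itself had 37.6 and 37.4 TPM. At the low end, the secreted stress factor Gdf15 had 0.27 and 0.64 TPM, and Fgf21 was listed at 0 in both libraries. Between the libraries, 1 of the 17 genes of this list that were tested was called, Slc7a11 (3 and 140 counts, lower in replicate 1), and 1 of 78 mitochondrial ribosomal proteins, Mrpl23 (31.1 and 87.2 counts, lower in replicate 1), beside the 3.2% of all genes tested. Of the 49 scaffold, amidotransferase, elongation factor, translation factor and transfer RNA processing genes, 0 were called by the exact binomial test and 0 by edgeR's exact test with the 2-fold rule, while 12 had an unadjusted p under 0.05 at any ratio. A further list, with no members in it, held relatives of the synthetases and other transfer RNA enzymes such as Pstk, Dtd1 and Dtd2. Its median was 6.92 ± 1.55 TPM over 7 genes. Among them Tarsl2, a cytosolic threonine enzyme in mammals, had 11.3 and 10.97 TPM, above the 9.75 and 7.75 TPM of Tars in the RSEM-style table. The kallisto-style level of Tars was 17.6 and 11.6 TPM, and that of Tarsl2 was not taken.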

How the data were processed

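Stranded total RNA of mouse heart was measured in 2 libraries. Per the file headers, the deposited gene and transcript tables with RSEM's column names hold expected counts, TPM, posterior mean TPM with credibility bounds, and each transcript's percent of its gene's TPM. Tables deposited with kallisto's column names hold estimated counts and TPM. The authors' readme gives mm10 and annotation M21; the tools and their versions are not stated there or elsewhere in the sources used. Symbols, transcript types and sequences came from GENCODE M21. The members, lists, motifs and tests were chosen with earlier results of these data known.

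Levels are gene TPM of the RSEM-style tables, with the SD over 2 libraries. For the library comparison, expected counts were rounded to whole numbers and tested by an exact binomial test with TMM sizes (edgeR 4.0.16; DESeq2 1.42.0 size factors as an alternative; R 4.3.3, scipy 1.17.1), over genes with 10 counts in each library or 20 in total. P-values under 1e-300 were set to it. The procedure was run on simulated counts that held counting error only, which is what the test assumes. Its behaviour under a wider spread was not tested. Intervals cover counting error only. Any member could be named; of each list, the 3 highest, the 3 lowest and called genes. Kallisto-style values were summed per gene. The symbol Mars appears as Mars1 in RefSeq. Values of 1 member are not reported here, though counts over all members include it.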

Additional observations from a re-analysis of the deposited data

How the results depend on the processing

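All 37 members were detected under every alternative that kept the 1 TPM limit, and 33 at 5 TPM. The cytosolic median stayed above the mitochondrial median throughout. The cytosolic median was 19.6 TPM in the kallisto-style table, 13.5 TPM over protein-coding transcripts only and 17.015 TPM with Gars and Kars added. The mitochondrial median was 11.7 TPM, 6.30 TPM over protein-coding transcripts only, and 8.18 TPM without Lars2. The cytosolic gene was higher in 10 to 13 pairs, and higher by 1 log2 unit or more in 7 to 9; the mitochondrial gene was higher by as much in 1 pair, 2 in the kallisto-style table, 3 over protein-coding transcripts, 0 in counts not divided by length and 2 without either library. Of the 18 pairs, 15 kept the sign of their mean under the 5 alternatives that keep both libraries, and 14 also without each library: Farsb over Fars2 was 0.053 in the kallisto-style table, Yars over Yars2 was -0.05 over protein-coding transcripts, and Vars over Vars2 turned positive in 3. Without replicate 1, Lars over Lars2 was 0.34 (-0.00091 over protein-coding transcripts with both libraries) and Yars over Yars2 -0.03. Lars2 had 155 TPM in the kallisto-style table, 40.3% of the mitochondrial sum; leaving out each library in turn gave 17.9 to 62.3 TPM and 9.39% to 26.9%. Lars2 was the called member under every scaling, without the count filter, by edgeR's exact test with an assumed coefficient of variation of 0.1 (adjusted p = 1.55e-15), and in the kallisto-style table (adjusted p 8.86e-298 to 1.55e-15 over the alternatives with all its transcripts); at any ratio 5 members passed. With its decay transcript left out of Lars2, an alternative chosen after seeing the data, 0 members were called by the exact binomial test (7 had an unadjusted p under 0.05; no other tool was run on this), and the Lars2 log2 ratio turned to -0.28 (adjusted p = 1.45e-06). No paired analysis was possible because there is 1 group of 2 libraries. With 2 libraries the spread is poorly known, and transcript shares of Lars2 rest on few distinguishing bases.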
